A study of Homo sapiens with 18 samples.

Results

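The genes described here are 10 members of the WNT and beta-catenin pathway, taken by name from the 58051 genes measured by RNA sequencing in 2 NRAS-mutant melanoma cell lines. They are *CTNNB1*, *AXIN1*, *AXIN2*, *LEF1*, *TCF7*, *TCF7L2*, *RNF43*, *DKK1*, *WNT5A* and *ROR2*. Both lines, SKMEL2 and SKMEL30, carried a stably integrated pTRIPZ-PPP2R3B construct, in which doxycycline switches on *PPP2R3B*, a regulatory subunit of the phosphatase PP2A. Each line was sequenced uninduced, after 6 h and after 18 h of induction, with 3 libraries in each of the 6 groups and 18 libraries in all. The construct was present in every library, the uninduced controls included, and no group received doxycycline without the *PPP2R3B* insert, so effects of the drug and of the transgene cannot be told apart. Uninduced libraries carry no hour in their labels, so effects of time in culture cannot be told apart from those of induction. The labels do not say that libraries of a group came from separate cultures, so the p-values measure the spread between these libraries, which may be technical.

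WNT ligands bind Frizzled receptors with the coreceptors LRP5 and LRP6 and thereby stop a destruction complex, built on the scaffolds AXIN1 and AXIN2, from marking beta-catenin (the product of *CTNNB1*) for degradation. Stabilised beta-catenin enters the nucleus and acts through the DNA-binding factors LEF1, TCF7 and TCF7L2 on targets that include the feedback inhibitors *AXIN2*, *RNF43* and *DKK1*. WNT5A signals largely through ROR2 without beta-catenin, and in melanoma high WNT5A is known from invasive, poorly pigmented cells, while LEF1 is usually found in pigmented ones.

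Total counts ranged from 13402645 to 22383470 per library (median 17958636), and levels are given as CPM, counts scaled by library size with TMM factors over the 18 libraries. *PPP2R3B* itself rose from 20.6 to 424 and 471 CPM in SKMEL2 and from 21.0 to 542 and 617 CPM in SKMEL30. The 7 melanocyte lineage markers examined were detected in each of the 6 groups. Of 5 keratinocyte genes, *KRT1* had no count and *KRT10* was present throughout, while *KRT5*, *KRT14* and *DSG3* varied from library to library and peaked in SKMEL30 at 6 h, replicate 3, with 803 *KRT5* counts. The keratinocyte sum spanned 22.0 to 42.5 CPM in SKMEL2, with overlapping groups, and in SKMEL30 17.6 to 20.8 CPM uninduced, 19.6 to 88.3 CPM at 6 h and 18.5 to 31.3 CPM at 18 h. In bulk libraries such as these, fewer cells with a transcript and less transcript per cell cannot be told apart.

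The promoter of *DKK1* is shown because *DKK1*, a secreted inhibitor that binds LRP5 and LRP6, was the 1 member called after induction. That of *SP5*, a transcription factor and canonical target that is not a member, is shown beside it because *SP5* was almost silent in 1 line and present in the other. Each window runs from 250 bases before to 50 bases after the start site, 5′ to 3′ on the gene's strand, from RefSeq on GRCh38.p14. Capitals mark matches, on either strand, to 4 TCF/LEF letter strings of 7 bases, which open with CTTTG and close with AA, AT, TA or TT. The *DKK1* window is chr10:52314031-52314330 (+) and the *SP5* window is chr2:170715087-170715386 (+).
DKK1: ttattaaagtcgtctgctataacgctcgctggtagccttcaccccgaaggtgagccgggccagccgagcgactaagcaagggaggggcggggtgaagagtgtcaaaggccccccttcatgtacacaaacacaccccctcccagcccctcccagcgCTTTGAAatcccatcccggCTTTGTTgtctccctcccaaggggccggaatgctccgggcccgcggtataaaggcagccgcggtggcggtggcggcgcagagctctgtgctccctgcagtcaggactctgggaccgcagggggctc
SP5: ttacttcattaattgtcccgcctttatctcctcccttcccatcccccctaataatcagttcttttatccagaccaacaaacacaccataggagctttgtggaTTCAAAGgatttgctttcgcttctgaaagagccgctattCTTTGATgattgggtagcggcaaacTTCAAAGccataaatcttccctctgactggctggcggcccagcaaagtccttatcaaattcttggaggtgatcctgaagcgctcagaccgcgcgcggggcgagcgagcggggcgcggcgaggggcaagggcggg

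The *DKK1* window held CTTTGAA from position -95 and CTTTGTT from position -76, counted from the start site. *SP5* held 3 matches, from positions -148, -109 and -84. A window with at least 1 match is common, with 13.8% of 35116 promoter windows of this length holding one, and 2 or more were found in 1.58%. Windows were at hand for 9 members, and besides *DKK1* a match was found in 1 of 2 windows of *TCF7* (CTTTGTT on the opposite strand, from -50) and in 1 of 3 of *TCF7L2* (CTTTGTT, from -133). By gene that is 3 of 9 members, where 16.4% of 27305 symbols with a window had a match. By window it is 3 of 14, beside the 13.8% above. *CTNNB1*, *AXIN1*, *LEF1*, *RNF43*, *WNT5A* and *ROR2* had none of these letters in their windows. Canonical targets with a window numbered 9, of which 3 (*DKK1*, *SP5* and *TCF7*) had a match. Among those without a match were *BAMBI*, *CD44*, *TNFRSF19* and *APCDD1*, the last with a ratio of uninduced SKMEL30 to SKMEL2 of 23.6. *SP5* is thus not typical of the targets that differ between the lines. A match is a description of the letters and not evidence of binding.

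**Figure D1:**
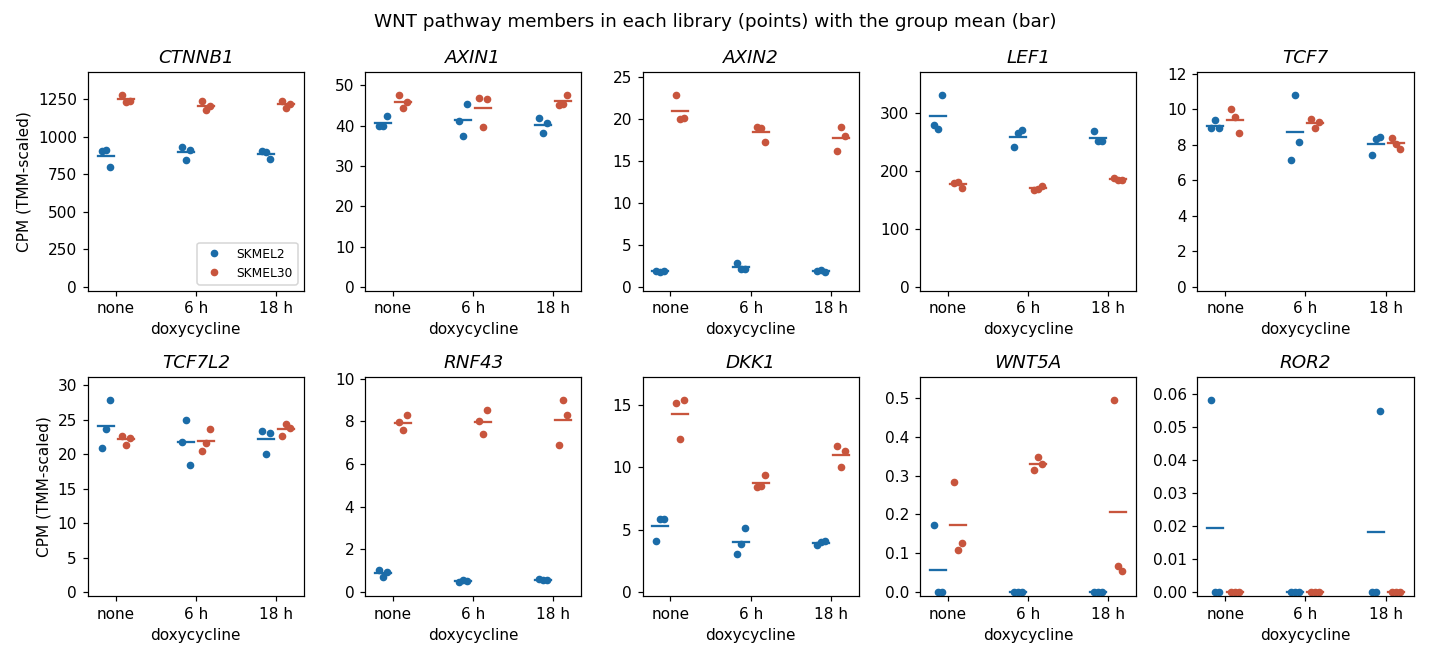
CPM after TMM scaling (y axis, from 0, a separate scale for each gene) of the 10 members in uninduced, 6 h and 18 h libraries (x axis). Points are single libraries, bars are means of 3, and colours are the lines; *AXIN2*, *RNF43* and *DKK1* sit higher in SKMEL30 than in SKMEL2 in each group, *LEF1* sits lower, and *DKK1* in SKMEL30 dips at 6 h.

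The first question was what each line expressed before induction. At the ligand end of the pathway, *WNT5A* was at the limit of detection in both lines. In SKMEL2 it had 3 counts in 1 uninduced library and 0 counts in the other 8. In SKMEL30 the uninduced libraries held 5, 2 and 2 counts, those at 6 h held 4, 7 and 7, and those at 18 h held 9, 1 and 1. The groups of SKMEL30 overlapped, and a library without a count allows a level of up to 0.131 to 0.236 CPM (3 counts, counting error only). Over the uninduced libraries the ratio of SKMEL30 to SKMEL2 was 3.48, with a 95% counting interval of 0.868 to 20.0 from 9 and 3 counts. *ROR2*, the receptor tyrosine kinase that binds WNT5A, had 1 count in each of 2 SKMEL2 libraries and none in any of the 9 SKMEL30 libraries. Neither gene passed the filter on low counts, so 8 of the 10 members were tested in each comparison.

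The related receptor *ROR1* was present in both lines, at 15.7 CPM in SKMEL2 and 23.1 CPM in SKMEL30 before induction. Among 19 genes for WNT ligands, 5 had over 3 counts in every SKMEL2 library (*WNT2B*, *WNT3*, *WNT5B*, *WNT9A* and *WNT10B*) and 3 in every SKMEL30 library (*WNT2B*, *WNT3* and *WNT10B*), while 11 and 13 stayed at 3 counts or fewer throughout.

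Beta-catenin's gene *CTNNB1* was the most abundant member. Its uninduced libraries read 906, 914 and 801 CPM in SKMEL2 and 1279, 1233 and 1240 CPM in SKMEL30. All SKMEL30 libraries lay above all SKMEL2 libraries, and the log2 difference was 0.52 (SE 0.05, adjusted p = 1.17e-08, edgeR's quasi-likelihood test). *AXIN1*, the constitutive scaffold of the destruction complex, differed little, at 39.8, 39.8 and 42.5 CPM in SKMEL2 and 47.6, 44.3 and 45.8 CPM in SKMEL30. That gave a log2 difference of 0.17 (SE 0.07, adjusted p = 0.0312), whose call was lost with DESeq2 (adjusted p = 0.0581), with only genes of at least 10 counts in every library (0.127) and in 4 of 6 fits that left out a library (SKMEL2 replicates 1 and 2, SKMEL30 replicates 1 and 3), with adjusted p from 0.0236 to 0.0905 over the 6.

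The feedback genes set the lines apart most. *AXIN2*, the inducible scaffold that is among the most general readouts of beta-catenin activity, read 1.86, 1.80 and 1.85 CPM in SKMEL2 and 22.8, 19.9 and 20.1 CPM in SKMEL30. The log2 difference was 3.51 (SE 0.12, adjusted p = 1.17e-15). *RNF43*, a ubiquitin ligase that removes Frizzled receptors from the cell surface, read 1.04, 0.698 and 0.923 CPM in SKMEL2 and 7.96, 7.60 and 8.29 CPM in SKMEL30. Its log2 difference was 3.16 (SE 0.16, adjusted p = 8.20e-13). *DKK1* read 4.06, 5.89 and 5.84 CPM against 15.2, 12.2 and 15.4 CPM, a log2 difference of 1.42 (SE 0.15, adjusted p = 3.42e-08). For each of the 3 genes the lines did not overlap.

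The nuclear factors went otherwise. *LEF1* was lower in SKMEL30, at 179, 180 and 170 CPM against 278, 272 and 331 CPM in SKMEL2, without overlap and with a log2 difference of -0.74 (SE 0.06, adjusted p = 1.09e-09). *TCF7* read 8.93, 9.38 and 8.96 CPM in SKMEL2 and 10.003, 9.56 and 8.66 CPM in SKMEL30, with overlapping lines and a 95% interval of -0.19 to 0.29 for the log2 difference. *TCF7L2* overlapped too, at 20.8, 23.7 and 27.8 CPM against 22.7, 21.4 and 22.3 CPM, with an interval of -0.36 to 0.09. *LEF1* made up most of the family in either line. As a share of the summed CPM per kilobase of *TCF7*, *LEF1*, *TCF7L1* and *TCF7L2* it took 90.1% to 92.3% in the 9 libraries of SKMEL2 and 87.7% to 89.1% in those of SKMEL30.

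Between the uninduced lines 6 of the 8 tested members were called, 5 of them higher in SKMEL30 and *LEF1* lower, where 75.9% of all 17133 genes tested were called, 35.8% higher and 40.1% lower. The share of members is therefore near that of genes at large. The median log2 difference was 0.34 over the members and -0.05 over all genes tested.

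**Figure D2:**
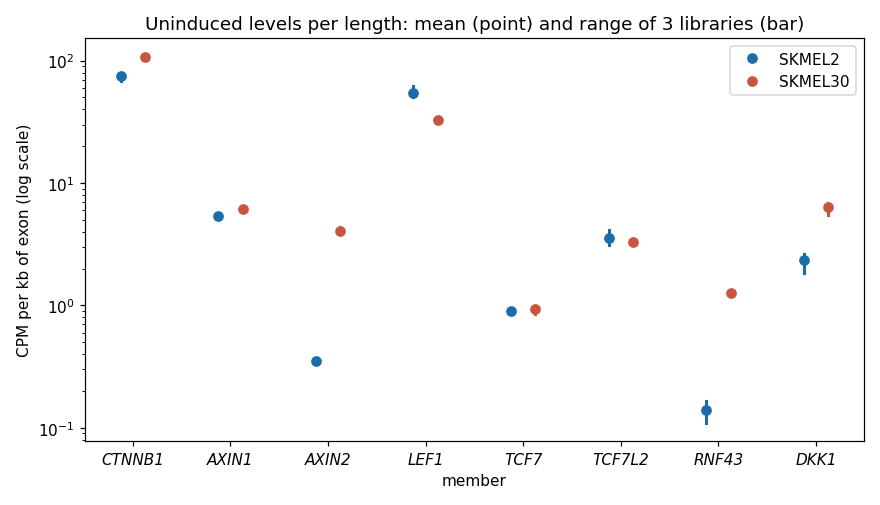
Mean CPM per kilobase of exon (y axis, log scale) of 8 members in uninduced SKMEL2 and SKMEL30 (x axis, genes), with bars from the lowest to the highest of 3 libraries. *CTNNB1* and *LEF1* lie highest in both lines, and the gap between the lines is widest for *AXIN2* and *RNF43*.

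Per kilobase of exon, the order of levels in uninduced SKMEL2 was *CTNNB1* (74.3 CPM per kb), *LEF1* (54.8), *AXIN1* (5.40), *TCF7L2* (3.58), *DKK1* (2.37), *TCF7* (0.901), *AXIN2* (0.353) and *RNF43* (0.140), and no neighbours in that order overlapped. In uninduced SKMEL30 it was *CTNNB1* (106), *LEF1* (32.9), *DKK1* (6.42), *AXIN1* (6.09), *AXIN2* (4.03), *TCF7L2* (3.28), *RNF43* (1.26) and *TCF7* (0.932), where *DKK1* and *AXIN1* overlapped and the other neighbours did not. *AXIN2* and *RNF43* thus ranked above *TCF7* in SKMEL30 and below it in SKMEL2. In CPM, *RNF43* lay below *TCF7* in each uninduced SKMEL30 library. Its rank there thus rests on the exon lengths, 6329 bases for *RNF43* and 10093 for *TCF7*. Lengths are the union of all annotated exons, which is longer than the main transcript of some genes and lowers their value.

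The other genes of the pathway were read from 8 lists that hold 104 genes besides the members. Of these, 73 were tested between the lines, 31 were higher and 32 lower in SKMEL30, where 35.8% of all genes tested were called higher and 40.1% lower. Most genes at large were thus called as well. Within the lines, 70 were tested in SKMEL2 and 66 in SKMEL30, so some of the 73 passed the filter over both lines through 1 line. Canonical targets, the list to which *AXIN2*, *RNF43*, *DKK1*, *LEF1* and *TCF7* belong, had 16 of 18 genes tested, of which 13 were higher, *LEF1* was lower and 2 were not called, with a median log2 difference of 1.64 beside -0.05 over all genes tested. Fitted alone, SKMEL30 had 16 of these genes tested and SKMEL2 had 14. *NKD1* and *SP5* had at most 8 and 1 counts in any SKMEL2 library. They passed the joint filter through SKMEL30, where they are high, so their direction was fixed in advance. Both are among the 13 called higher and enter the median of 1.64, to which they add no support. *NKD1*, a feedback inhibitor that acts on Dishevelled, stood at 0.196 CPM in SKMEL2 and 10.2 CPM in SKMEL30 (log2 difference 5.62, SE 0.27). Its uninduced counts were 12 and 528, a ratio of 51.0 with a 95% counting interval of 28.9 to 99.3. *APCDD1*, a membrane inhibitor of WNT binding, stood at 4.06 and 95.9 CPM (4.56, SE 0.09). *SP5*, whose promoter is printed above, had 1 count in uninduced SKMEL2 and 33 in SKMEL30, a ratio of 38.2 with a 95% counting interval of 6.40 to 1555. *ZNRF3*, the partner of *RNF43* at the receptor, stood at 9.26 and 33.8 CPM (1.86, SE 0.09). *LGR4*, the receptor through which bound R-spondins hold both ligases back, was lower in SKMEL30 at 28.8 against 37.9 CPM (-0.40, SE 0.08). No R-spondin gene had over 4 counts in any library. Adjusted p was under the threshold of 0.05 by edgeR's quasi-likelihood test for *NKD1*, *APCDD1*, *SP5*, *ZNRF3* and *LGR4*. For *NKD1* and *SP5* the filter left no other direction.

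Among secreted and membrane inhibitors, the list of *DKK1*, 7 of 9 tested genes were higher and 1 was lower in SKMEL30, where 35.8% of all genes tested were called higher and 40.1% lower. *DKK1*, *NOTUM* and *APCDD1* also stand among the canonical targets, so the 2 lists are not separate. *SFRP5* had few counts in SKMEL2 and *DKK3* few in SKMEL30, so each passed the joint filter through the other line. Both stand in these counts, though their direction was fixed in advance. *SFRP1*, a decoy that binds WNT ligands, led with 1.51 against 64.9 CPM (log2 difference 5.43, SE 0.08), and *DKK3* went the other way, with 74 counts in SKMEL2 and 3 in SKMEL30 (ratio 0.0470, 95% counting interval 0.00947 to 0.143). Noncanonical and planar polarity genes, the list of *WNT5A* and *ROR2*, had 5 higher and 10 lower of 17 tested, with a median of -0.15. Within it *PTK7* (0.957 against 78.6 CPM) and *VANGL2* (1.11 against 24.5 CPM) were higher in SKMEL30 and *CELSR1* was lower (34.9 against 2.53 CPM), all 3 being parts of the planar polarity machinery. Among the nuclear factors, with 3 higher and 5 lower of 13 tested, the corepressor *TLE4* (5.95 against 0.113 CPM) and *TCF7L1* (2.27 against 0.331 CPM) were lower in SKMEL30 together with *LEF1*. *TLE4* had 357 counts in uninduced SKMEL2 and 6 in SKMEL30, near the floor (ratio 0.0195, 95% counting interval 0.00710 to 0.0428). *TCF7L1* had 140 and 17 (ratio 0.141, interval 0.0797 to 0.233). Both passed the joint filter through SKMEL2, as did *TLE2* with 23 and 6 counts, so their direction was fixed in advance. All stand among the 5 lower, and SKMEL30 fitted alone had 10 nuclear factors tested. The call of *TLE2* was lost in 3 of 6 fits that left out a library. Ligands and their secretion (2 higher, 4 lower of 7 tested), receptors (4 and 7 of 13), the R-spondin axis (2 and 1 of 3) and the destruction complex (9 and 6 of 17) were mixed. SKMEL30 fitted alone had 5 ligand genes and 12 receptors tested, and SKMEL2 alone had 16 destruction complex genes. *WNT9A*, *WNT5B* and *FZD9* had few counts in SKMEL30 and *NKD1* few in SKMEL2. Each passed the joint filter through the other line, so its direction was fixed in advance.

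**Figure D3:**
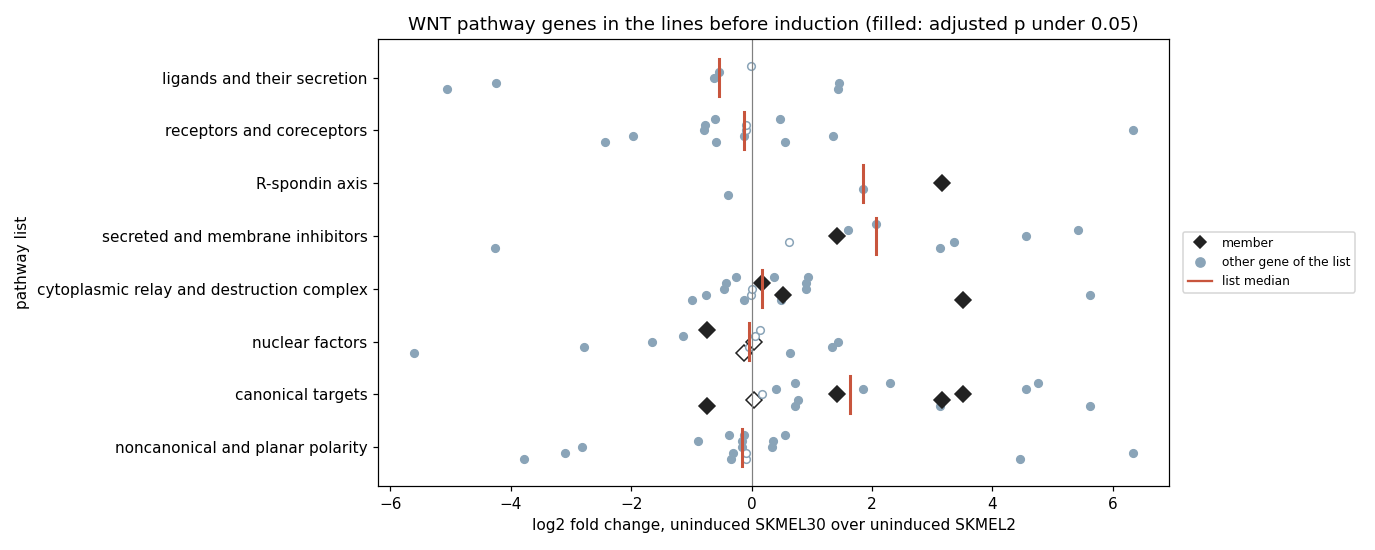
Log2 fold change of uninduced SKMEL30 over uninduced SKMEL2 (x axis) for the tested genes of 8 pathway lists (y axis; a gene may stand in more than 1 list, and vertical spread within a list has no meaning). Filled symbols passed adjusted p of 0.05, diamonds are members and red bars are list medians; the medians of canonical targets (1.64) and of secreted and membrane inhibitors (2.06) lie to the right, with *LEF1* the 1 target called to the left. A gene with few counts in 1 line could pass the filter through the other, as *NKD1* and *SP5* (targets) and *SFRP5* and *DKK3* (inhibitors) did. Such genes enter the medians.

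The second question was how the members changed after *PPP2R3B* was switched on. *DKK1* in SKMEL30 was the member that passed the test. Its uninduced libraries read 15.2, 12.2 and 15.4 CPM, those at 6 h read 8.41, 8.48 and 9.40 CPM, and those at 18 h read 11.7, 9.99 and 11.3 CPM. Each 6 h and 18 h library lay below each uninduced library, and the 18 h libraries lay above those at 6 h. At 6 h *DKK1* fell by 0.70 on the log2 scale (SE 0.10, 95% interval of the log2 fold change -0.91 to -0.48, adjusted p = 0.00716, edgeR's quasi-likelihood test). At 18 h the log2 fold change was -0.37 (SE 0.10), which did not pass (adjusted p = 0.199), and 18 h against 6 h gave 0.33 (SE 0.10, adjusted p = 0.771). Over the mean of both times it fell by 0.53 (SE 0.09, adjusted p = 0.0128).

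The counts behind the *DKK1* values were 267, 224 and 245 in the uninduced libraries, 107, 170 and 200 at 6 h and 213, 151 and 205 at 18 h. The call at 6 h was lost when all 18 libraries shared a fit (adjusted p = 0.147), without uninduced replicate 1 (adjusted p = 0.0682) and without uninduced replicate 3 (adjusted p = 0.05002), while its log2 fold change stayed between -0.80 and -0.63. The call over the mean of both times was lost in the same 3 settings, with adjusted p of 0.226, 0.137 and 0.130. Without SKMEL30 6 h replicate 3, the library with the most *KRT5*, the 6 h change was -0.75 (adjusted p = 0.0234).

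In SKMEL2 *DKK1* read 4.06, 5.89 and 5.84 CPM uninduced, 3.02, 3.81 and 5.13 CPM at 6 h and 3.76, 3.99 and 4.10 CPM at 18 h, with overlapping groups. Its log2 fold change was -0.41 (SE 0.20) at 6 h and -0.42 (SE 0.20) at 18 h, with adjusted p of 0.989 and 0.987. The difference between the lines in the response was -0.28 (SE 0.22, 95% interval -0.74 to 0.19, adjusted p = 0.902) at 6 h and 0.05 (SE 0.21, interval -0.40 to 0.50, adjusted p = 1.00) at 18 h. The response of *DKK1* was therefore not shown to differ between the lines.

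**Figure D4:**
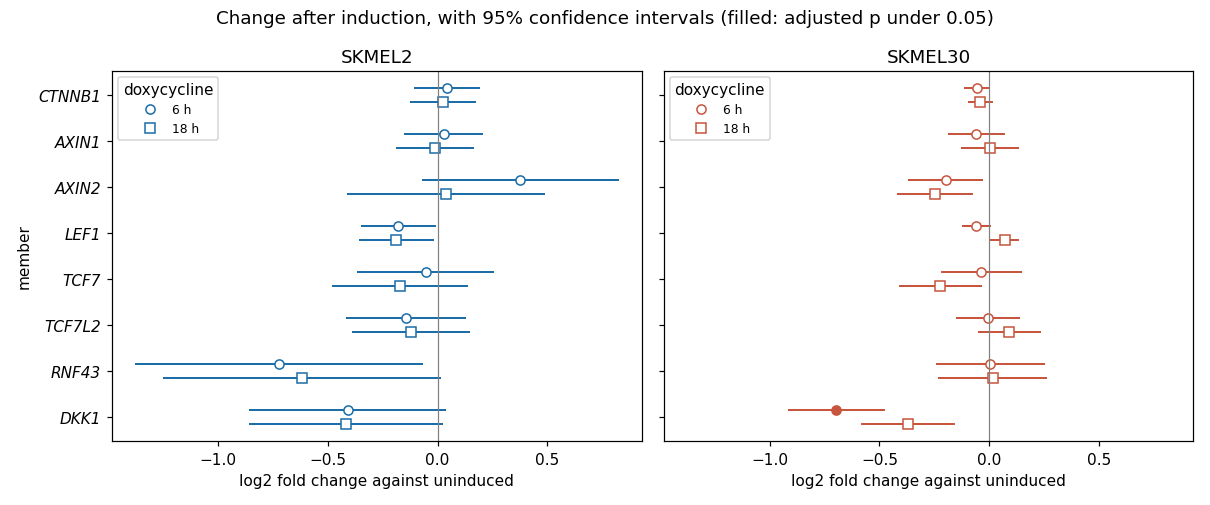
Log2 fold change against uninduced libraries (x axis) of 8 members (y axis) at 6 h (circles) and 18 h (squares) in SKMEL2 (left) and SKMEL30 (right), with 95% confidence intervals from edgeR. The 1 filled symbol, *DKK1* at 6 h in SKMEL30 (-0.70), is the 1 change that passed adjusted p of 0.05.

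Of the other feedback genes, *AXIN2* in SKMEL30 read 22.8, 19.9 and 20.1 CPM uninduced, 19.0, 18.9 and 17.3 CPM at 6 h and 16.2, 19.1 and 17.9 CPM at 18 h. Induced and uninduced libraries did not overlap, but the log2 fold changes of -0.20 (SE 0.08, adjusted p = 0.693) and -0.25 (SE 0.08, adjusted p = 0.316) did not pass edgeR's test over all genes. In SKMEL2 it read 1.86, 1.80 and 1.85 CPM uninduced, 2.85, 2.16 and 2.06 CPM at 6 h and 1.84, 2.05 and 1.75 CPM at 18 h. The log2 fold change was 0.38 (SE 0.20, 95% interval -0.07 to 0.82) at 6 h and 0.04 (SE 0.21) at 18 h. The difference between the lines at 6 h was -0.57 (SE 0.18), with an adjusted p of 0.902.

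*RNF43* in SKMEL2 read 1.04, 0.698 and 0.923 CPM uninduced, 0.494, 0.569 and 0.533 CPM at 6 h and 0.612, 0.554 and 0.546 CPM at 18 h. These are 18, 14 and 21 counts uninduced, 9, 10 and 8 at 6 h and 14, 10 and 10 at 18 h. Induced and uninduced libraries did not overlap in CPM, yet the log2 fold changes of -0.72 (SE 0.30) and -0.62 (SE 0.29) had adjusted p of 0.989 and 0.987. In SKMEL30, where counts were higher, it read 7.96, 7.60 and 8.29 CPM uninduced, 8.02, 7.39 and 8.56 CPM at 6 h and 6.87, 8.997 and 8.32 CPM at 18 h. The groups overlapped, and the 95% intervals of the log2 fold change were -0.24 to 0.25 and -0.23 to 0.26.

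*LEF1* in SKMEL2 read 278, 272 and 331 CPM uninduced, 241, 265 and 270 CPM at 6 h and 269, 251 and 252 CPM at 18 h. The uninduced libraries lay just above the induced ones, with log2 fold changes of -0.18 (SE 0.08, adjusted p = 0.989) and -0.19 (SE 0.08, adjusted p = 0.987). In SKMEL30 it read 179, 180 and 170 CPM uninduced, 167, 168 and 174 CPM at 6 h and 187, 185 and 184 CPM at 18 h. The 18 h libraries lay above all others of the line, with log2 fold changes of 0.07 (SE 0.03, adjusted p = 0.499) against uninduced and 0.13 (SE 0.03, adjusted p = 0.434) against 6 h.

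*TCF7* and *TCF7L2* had no change called in either line. In SKMEL30 *TCF7* read 10.003, 9.56 and 8.66 CPM uninduced and 8.41, 8.07 and 7.77 CPM at 18 h, a log2 fold change of -0.22 (SE 0.09, adjusted p = 0.459) without overlap. Its other changes against the uninduced libraries at 6 h and 18 h lay between -0.17 and -0.04 in the 2 lines, and from 6 h to 18 h it changed by -0.12 in SKMEL2 and -0.19 in SKMEL30. *TCF7L2* changed by -0.14 and -0.12 in SKMEL2 at 6 h and 18 h and by -0.01 and 0.09 in SKMEL30, with none called.

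*CTNNB1* and *AXIN1* had no change called in either line. In SKMEL30 *CTNNB1* read 1237, 1181 and 1203 CPM at 6 h and 1236, 1192 and 1221 CPM at 18 h, and the 95% intervals of its log2 fold change were -0.11 to -0.0035 and -0.09 to 0.01. In SKMEL2 they were -0.10 to 0.19 and -0.12 to 0.17. The intervals of *AXIN1* were -0.19 to 0.07 and -0.12 to 0.13 in SKMEL30 and -0.15 to 0.20 and -0.18 to 0.16 in SKMEL2.

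In counts, edgeR called 1 of 8 tested members at 6 h in SKMEL30 (*DKK1*, lower), where 0.206% of 15026 genes were called and 0.113% were called lower. It called none at 18 h (0.293% of genes called), none for 18 h against 6 h (0.02%), and 1 over the mean of both times (*DKK1*, where 0.26% of genes were called and 0.14% were called lower). In SKMEL2 it called none at 6 h (0.0124% of 16120 genes), at 18 h (0.0124%), for 18 h against 6 h (0%) or over the mean of both times (0.0186%). None was called for the difference between the lines at 6 h (0% of genes) or at 18 h (0.00584%). An unadjusted p under 0.05, which takes no account of the number of genes tested, was found in SKMEL30 for 3 of 8 members at 6 h (against 6.44% of all genes tested), 4 at 18 h (against 9.14%), 2 for 18 h against 6 h (against 5.56%) and 3 over the mean (against 8.67%). In SKMEL2 it was found for 2 of 8 at 6 h (against 3.37%), 1 at 18 h (against 4.65%), 0 for 18 h against 6 h (against 2.59%) and 3 over the mean (against 4.42%). For the difference between the lines it was found for 2 of 8 at 6 h (against 4.91%) and 1 at 18 h (against 5.16%). The members were chosen with earlier results of these data known, and the comparisons within a line share libraries. DESeq2 gave the same number of called members in each of these comparisons. At 6 h the median log2 fold change of the members was -0.10 in SKMEL2 and -0.06 in SKMEL30, beside 0.00 over all genes tested in either line. At 18 h it was -0.14 and -0.02, beside 0.00 in both.

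Of the 104 other pathway genes, 66 were tested in SKMEL30 and 70 in SKMEL2. *CCND1*, the cell cycle gene for cyclin D1 and a canonical target, was the 1 called after induction, where 0.12% of genes were called lower at 18 h. In SKMEL30 it read 1411, 1417 and 1408 CPM uninduced, 1391, 1404 and 1393 CPM at 6 h and 1220, 1227 and 1258 CPM at 18 h. The 18 h libraries lay below all others, and *CCND1* fell by 0.20 on the log2 scale at 18 h (SE 0.02, adjusted p = 0.000936) and by 0.17 from 6 h to 18 h (SE 0.02, adjusted p = 0.0287), where the 6 h change was -0.02 (SE 0.02). The call at 18 h was lost with all 18 libraries in a single fit (adjusted p = 0.252), and the call for 18 h against 6 h was lost in 5 of 6 fits that left out a library (each but 6 h replicate 1), with adjusted p from 0.0459 to 0.179. Over the mean of both times the change was -0.11 (SE 0.02, adjusted p = 0.0440), a call lost in 8 of 9 such fits (each but 6 h replicate 2) with adjusted p up to 0.232. In SKMEL2 *CCND1* changed by -0.12 and -0.14 with adjusted p of 0.989 and 0.987, and the difference between the lines at 18 h was -0.06 (SE 0.06, adjusted p = 0.922). *CCND1* and *DKK1* thus had their lowest means in SKMEL30 at different times. None of the other pathway genes passed in SKMEL2, and DESeq2 called 0 there at 6 h and at 18 h. It called 8 and 11 of all 16119 genes at these times. In SKMEL2 3 of 70 had an unadjusted p under 0.05 at 6 h (4.29%, against 3.37% of all genes tested) and 6 at 18 h (8.57%, against 4.65%). In SKMEL30 4 of 66 did at 6 h (6.06%, against 6.44%) and 13 at 18 h (19.7%, against 9.14%).

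Among canonical targets in SKMEL30, 13 of 16 were lower at 6 h and 12 of 16 at 18 h by the sign of the estimate, with medians of -0.05 and -0.07, and 1 was called at each time. In SKMEL2, 11 of 14 and 8 of 14 were lower, with medians of -0.07 and -0.10 and none called. Over all genes tested the split was close to even, with 7469 of 15026 lower in SKMEL30 at 6 h and 7920 of 16120 in SKMEL2. Members make up 5 of the 18 genes of this list. The noncanonical list had medians of 0.02 in both lines at 6 h, of 0.03 in SKMEL2 and 0.02 in SKMEL30 at 18 h, and no call. Each set of induced libraries was compared with the same uninduced libraries of its line, so the 6 h and 18 h values share their controls.

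Across the 9 SKMEL30 libraries, the genes whose log2 CPM followed *DKK1* most closely were *PDLIM5* (Pearson's r 0.972), *GPR161* (0.944) and *PDE4B* (0.942). These libraries share their line and their induction groups, and the correlations are given as a description of 9 points.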

How the data were processed

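RNA was sequenced from 18 libraries of SKMEL2 and SKMEL30 cells. The authors deposited 1 table of RSEM expected counts for 58051 Ensembl genes, made, per the study's methods, by adapter trimming, STAR alignment and RSEM on Ensembl GRCh38. The submitters' processing notes list Trimmomatic 0.36, cutadapt 1.5, STAR 2.2.2a, SAMtools 1.8 and RSEM 1.3.0, which differ in part from the methods. The labels give the later time as 18 h, and the study's text gives a slightly earlier hour. No column lacked a sample.

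Expected counts (12.3% not whole) were rounded and tested with edgeR 4.0.16 in R 4.3.3: filterByExpr, TMM factors, glmQLFit and glmQLFTest, Benjamini-Hochberg adjustment over all genes tested, called under 0.05. Induction was fitted within each line (9 libraries, 16120 genes in SKMEL2 and 15026 in SKMEL30), and line differences and interactions over 18 libraries (17133 genes). Spread between replicates, as edgeR's common coefficient of variation, came to 8.36% for SKMEL2 against 4.11% for SKMEL30. SE is the absolute log2 fold change over the square root of F. Intervals on ratios of counts cover counting error only. The script was tested on simulated data. Symbols matched 95.8% of gene identifiers. Replicates differed by more than sampling noise (chi-square per degree of freedom 3.02 to 18.6 in SKMEL2 and 2.07 to 5.63 in SKMEL30). The highest values, 18.6 and 16.5, were those of SKMEL2 uninduced replicate 3 with replicates 1 and 2.

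Members and lists were chosen with earlier results of these data known, so no p adjusted over a list is given. Named were the members, pathway genes called after induction, and genes drawn from those leading each list by level, p or line difference. DESeq2 1.42.0, RLE factors, other filters, other sets of libraries in the fit, a replicate block and leaving out each library were tried as alternatives.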

Additional observations from a re-analysis of the deposited data

How the results depend on the processing

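Of 2018 alternative values, 1865 kept their direction and their side of the threshold or moved by less than the spread. No called value changed sign. Without TMM factors, 17 of 60 group levels of the members moved by over 1 SD. For SKMEL30, all 18 libraries in a single fit called 0 members at 6 h and over the mean of both times (1 as reported), and 0 other pathway genes at 18 h, for 18 h against 6 h and over the mean (1 each as reported). The single fit called 5 of all 17133 genes at 6 h, 9 at 18 h and 9 over the mean. It called 0 for 18 h against 6 h. The main fit called 31, 44, 39 and 3 of 15026 genes in that order. Fits of only the compared groups called 0 other pathway genes for 18 h against 6 h, and 0 of all 14710 genes. With no filter on low counts, 1 member was called at 18 h and 1 for 18 h against 6 h (0 as reported), and other pathway genes numbered 2 at 6 h (0 as reported), 2 at 18 h, 2 for 18 h against 6 h and 3 over the mean. Of all 30524 genes, the fit without the filter called 321 at 6 h and 359 at 18 h. It called 197 for 18 h against 6 h and 370 over the mean. DESeq2 called 2 other pathway genes at 18 h, and 64 of all 15025 genes. The cause of these changes was not tested. Leaving out 1 library gave 0 to 1 members called at 6 h and over the mean, and 1 to 2 other pathway genes at 18 h, 0 to 1 for 18 h against 6 h and 0 to 1 over the mean. Over all genes such fits called 16 to 33 at 6 h and 25 to 30 at 18 h. They called 0 to 5 for 18 h against 6 h and 24 to 52 over the mean.

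Changes of sign occurred in 67 alternatives, all for log2 fold changes of 0.12 or smaller that were not called. Without the filter, 18 h against 6 h in SKMEL2 gave 0.0019 for *LEF1* and 0.0057 for *DKK1*, and *DKK1* there gave 0.0026 with all 18 libraries. With at least 10 counts in every library, *TCF7* between the uninduced lines gave -0.00055, and *RNF43* could not be fitted in SKMEL2 or across the lines, nor *WNT5A* or *ROR2* in either line. Ranges of the log2 fold change without 1 library that crossed 0 were, for SKMEL2 at 6 h, -0.016 to 0.086 (*CTNNB1*), -0.046 to 0.095 (*AXIN1*) and -0.24 to 0.078 (*TCF7*). At 18 h they were -0.037 to 0.057 (*CTNNB1*), -0.040 to 0.025 (*AXIN1*) and -0.024 to 0.088 (*AXIN2*). For 18 h against 6 h in SKMEL2 they were -0.063 to 0.0079 (*CTNNB1*), -0.11 to 0.035 (*AXIN1*), -0.059 to 0.022 (*LEF1*), -0.25 to 0.073 (*TCF7*), -0.078 to 0.13 (*TCF7L2*) and -0.18 to 0.21 (*DKK1*), and over the mean -0.027 to 0.068 (*CTNNB1*) and -0.028 to 0.042 (*AXIN1*). In SKMEL30 at 6 h they were -0.10 to 0.016 (*AXIN1*), -0.084 to 0.0028 (*TCF7*), -0.070 to 0.034 (*TCF7L2*) and -0.055 to 0.061 (*RNF43*), and at 18 h -0.024 to 0.025 (*AXIN1*) and -0.072 to 0.13 (*RNF43*). For 18 h against 6 h in SKMEL30 they were -0.012 to 0.11 (*AXIN1*), -0.11 to 0.018 (*AXIN2*) and -0.077 to 0.12 (*RNF43*), and over the mean -0.055 to 0.010 (*AXIN1*), -0.013 to 0.020 (*LEF1*) and -0.033 to 0.067 (*RNF43*). For the difference between the lines they were -0.10 to 0.20 (*TCF7*, 6 h), -0.025 to 0.037 (*AXIN1*, 18 h) and -0.056 to 0.19 (*DKK1*, 18 h).

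Same-numbered replicates deviated together (correlation over 0.1) in 4 of 9 pairs of libraries in SKMEL2 and 1 of 9 in SKMEL30. Of the libraries, 4 of 9 in SKMEL2 and 6 of 9 in SKMEL30 correlated best with their own number in both other groups. These values do not settle whether the numbers pair the samples. The labels do not say so, and the main fits carried no pairing. Over all 15026 genes tested in SKMEL30, a replicate block called 16 for 18 h against 6 h, where the main fit called 3. It called 37 at 18 h and 47 over the mean, where the main fit called 44 and 39. A replicate block called 2 other pathway genes in SKMEL30 at 18 h and 2 over the mean, changed no count of members called after induction, and gave 0.015 for *DKK1* (SKMEL2, 18 h against 6 h), -0.0050 for *RNF43* (SKMEL30, 6 h) and -0.00085 for *AXIN1* (SKMEL30, 18 h). With 3 libraries a group, few counts limit *RNF43* in SKMEL2, *WNT5A* and *ROR2* most.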
